A study of Mus musculus with 6 samples.

Results

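Short core LAD islands are stretches of the mouse autosomes that lay in a lamina-associated domain (LAD) in each of 3 DamID maps and ran for at least 50 kb and under 300 kb without a break. They were found by intersecting the authors' 3 deposited LAD lists on chromosomes 1 to 19. There were 698 islands among 1849 core stretches, and they held 130 Mb, or 10.2%, of 1283 Mb of core. The cells were wild type C57BL/6 mouse embryonic fibroblasts, connective tissue cells grown from embryos. One population received lentiviral shRNA against LmnA, one against LmnC and one, per the description labels, against LmnB1, and all were selected with puromycin at 2 ug/mL. In DamID a bacterial adenine methyltransferase (Dam) fused to a lamin methylates GATC sites in DNA that comes close to it, and Dam alone in parallel cells gives the background. Each map came from 1 Dam-only and 1 fusion library, so there were 6 libraries and no replicates. The fusion was Dam-LmnB1 for the LmnA RNAi and LmnC RNAi maps and Dam-LmnA for the LmnB1 RNAi map. A difference from the LmnB1 RNAi map therefore joins the targeted lamin and the fusion, and these cannot be told apart.

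Lamins are filament proteins that line the inner nuclear membrane. Alternative splicing of Lmna gives lamins A and C, and Lmnb1 encodes lamin B1. LADs are mostly gene-poor, late-replicating and transcriptionally quiet. Some are shared by most cell types and others vary between them, and contact differs from cell to cell. A signal between the extremes can come from contact in fewer cells or from weaker contact in each cell, which a bulk map cannot tell apart. RNA and protein were not measured, so neither the fibroblast identity nor the depletion of each lamin was checked. No comparison with unmanipulated cells was made here. Coordinates are in mm9, and genes and sequence in the islands are not given.

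The signal is the deposited log2 ratio of fusion over Dam-only reads, averaged over GATC fragments with each fragment weighted by its length. The islands held 334568 fragments, with a median of 469.5 per island (127 to 903). Total reads per library are unknown. Fragments read in 1 library alone carry values of more than 12 in either direction, because a very small number was added before the log, and they weigh heavily in each mean. Of autosomal fragments, 16.8% were read in the fusion library alone under LmnA RNAi, 12.9% under LmnC RNAi and 14.0% under LmnB1 RNAi, and 8.34%, 12.1% and 10.3% in the Dam-only library alone. Values without them are therefore given beside many of the main ones. A further 29.4%, 28.4% and 29.7% of autosomal fragments held a constant of their map. This is the value of equal reads in both libraries or of none in either. Unless stated, these fragments stay in the means, with or without single-library fragments, and in the fragment counts. Odd-numbered against even-numbered fragments of the same islands gave a standard deviation of 0.23, 0.20 and 0.22 for 1 island's signal in the LmnA, LmnC and LmnB1 RNAi maps. This is the sampling error within 1 pair of libraries, and the spread between replicate maps is unknown. The islands were chosen from LAD lists that rest on this same signal, so every signal value below is a description, and no test was made.

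The islands had a median length of 184 kb, with quartiles of 136 and 234 kb. Few were below 100 kb, and the shortest LAD in each list was 100.3 kb. There were 27 islands of 50 to 100 kb, 207 of 100 to 150 kb, 180 of 150 to 200 kb, 156 of 200 to 250 kb and 128 of 250 to 300 kb. An island below 100 kb can arise only where LADs of different maps overlap in part. The 3 longest were chr12:34308673-34608633, chr8:80650708-80950385 and chr1:80862429-81162065. The 3 shortest were chr16:76702758-76756076 (53.3 kb), chr13:12401655-12456876 (55.2 kb) and chr5:10694136-10751731 (57.6 kb). Their LADs in the LmnA RNAi map were 3537, 3257 and 5037 kb long.

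The length limits cut through a continuous range. Just over the upper limit, a stretch at chr11:107544777-107844972 had a log2 ratio of 2.29 under LmnA RNAi, 0.89 under LmnC RNAi and 0.75 under LmnB1 RNAi. Just under it, the chromosome 12 island had 2.47, 0.86 and 1.56, in the same order. A second stretch over the limit, at chr6:91712995-92014007, was lower, at 1.12, -0.12 and 0.04. Only 4 core stretches were under 50 kb. The longest of them, at chr2:171970422-172014146, had 4.56, 3.55 and 2.89, and the next, at chr4:99548801-99591211, had 3.36, -0.34 and 1.04. Within the islands the median signal did not order by length, at 1.89, 1.74, 2.05, 1.86 and 1.97 under LmnA RNAi over the 5 length classes from short to long.

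Most islands were part of a LAD over the length limit in at least 1 map, which goes against the word island. The LAD around 513 of them was 300 kb or more in at least 1 map. Such a LAD can be little longer than the island, as at chr8:73473930-73766434, with 292.5 kb in a LAD of 311.5 kb under LmnB1 RNAi. The LAD that held the island was under 300 kb in all 3 maps for 185 islands (26.5%). It was 300 kb or more in every map for 49 islands (7.02%), whose short core comes from borders that the maps place differently. LADs of the LmnA RNAi map were the longest of the 3 at 405 islands (58.0%), those of the LmnB1 RNAi map at 169 and those of the LmnC RNAi map at 124. The median length of the LAD around an island was 461 kb under LmnA RNAi, 243 kb under LmnC RNAi and 268 kb under LmnB1 RNAi. LADs of 300 kb or more held 426 islands (61.0%) under LmnA RNAi, 223 (31.9%) under LmnC RNAi and 284 (40.7%) under LmnB1 RNAi. The LAD was long in the LmnA RNAi map alone at 95 islands, in the LmnB1 RNAi map alone at 30 and in the LmnC RNAi map alone at 17. It was long in the LmnA and LmnB1 RNAi maps and short under LmnC RNAi at 165 islands, and long in both Dam-LmnB1 maps and short under LmnB1 RNAi at 117.

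**Figure D1:**
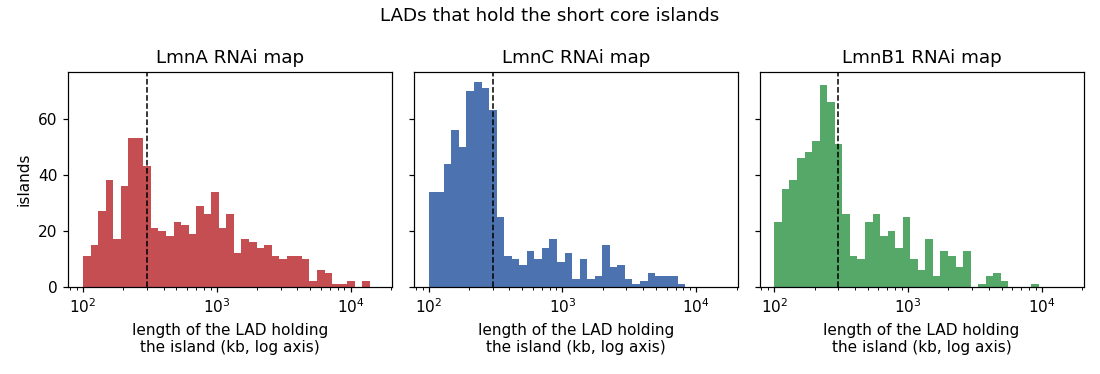
Length of the LAD that holds each of the 698 islands (x, kb, log axis) against the number of islands (y) in the LmnA, LmnC and LmnB1 RNAi maps, with a dashed line at 300 kb. After LmnA RNAi 426 islands lie at or right of the line, against 223 under LmnC RNAi and 284 under LmnB1 RNAi.

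The LmnC and LmnB1 RNAi maps set most island borders. Of 1396 borders, 622 (44.6%) fell on a LAD border of the LmnC RNAi map, 533 (38.2%) on one of the LmnB1 RNAi map and 298 (21.3%) on one of the LmnA RNAi map, with some shared. All 3 maps placed the border on the same fragment at 13. The outermost and innermost placement of a border differed by a median of 95.9 kb (quartiles 17.2 and 643 kb). It was 10 kb or less at 228 borders (16.3%) and over 100 kb at 689 (49.4%). At 20 islands both borders lay within 10 kb in all maps. An island was identical to the LAD of the LmnC RNAi map at 153 positions, to that of the LmnB1 RNAi map at 111 and to that of the LmnA RNAi map at 33.

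Most islands had another core stretch within 200 kb. The nearest other core stretch was at a median distance of 120 kb (quartiles 50.02 and 272 kb), under 200 kb for 461 islands (66.0%) and 1 Mb or more for 23. That distance is not given for longer core stretches. A neighbouring core stretch was also a short island for 416 islands (59.6%), against 62.2% of longer core stretches. Of the islands, 276 lay close enough to another for their 200 kb flanks to touch or overlap, so the values of these islands share flanking sequence. Of the flanking 200 kb on both sides, a median of 56.4% was in LADs under LmnA RNAi, 38.1% under LmnC RNAi and 42.3% under LmnB1 RNAi. Beside core stretches of 300 kb to 1 Mb it was 56.3%, 42.1% and 42.8%, and beside those of 1 Mb or more 60.8%, 43.1% and 47.0%. Flanks free of LADs were found at 10, 48 and 36 islands, in that order, and at 0 islands in all maps at once. At 186 islands no further LAD of any map began within 200 kb of the joined LADs around them.

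The LAD of the LmnA RNAi map held another core stretch beside the island at 317 islands (45.4%), against 162 (23.2%) under LmnC RNAi and 214 (30.7%) under LmnB1 RNAi. Sequence between an island and a neighbouring core stretch was spanned by a LAD of the LmnA RNAi map alone in 102 places, with a median length of 170 kb. The median log2 ratio of that sequence was 0.47 under LmnA RNAi, -1.22 under LmnC RNAi and -0.58 under LmnB1 RNAi. Without single-library fragments these were -0.08, -0.69 and -0.43, negative in each map and in the same order. As deposited, each lay below the median 100 kb window of its map, at 1.21, 0.06 and 0.53. A LAD of the LmnB1 RNAi map alone spanned 40 such places (median 69.2 kb), and a LAD of the LmnC RNAi map alone spanned 17 (98.5 kb). In the 40 places the ratio as deposited was -0.49 under LmnB1 RNAi and -0.33 under LmnA RNAi. The median 100 kb window of these maps was at 0.53 and 1.21. As deposited, the sequence of these 40 places thus lay further below the level of its map under LmnA RNAi. Without single-library fragments it was at -0.51 under LmnB1 RNAi and -0.37 under LmnA RNAi. In the 17 places the deposited ratio was -0.73 under LmnC RNAi, 0.26 under LmnA RNAi and -0.44 under LmnB1 RNAi.

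Signal inside the islands lay well above that of the flanking 200 kb in most cases. The comparison used the 696 islands with fragments over at least 50% of both. After LmnA RNAi the median was 1.90 in islands (quartiles 1.35 and 2.41) and 0.07 in flanks. After LmnC RNAi it was 0.96 in islands (0.35 and 1.51) and -1.23 in flanks, and under LmnB1 RNAi 1.24 in islands (0.75 and 1.68) and -0.62 in flanks. The median excess of the island over its own flanks was 1.79, 2.06 and 1.77 in the LmnA, LmnC and LmnB1 RNAi maps. Leaving out single-library fragments, the excess was 0.93, 0.97 and 0.80. The SD of the median excess over 19 chromosomes was 0.24, 0.27 and 0.19.

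An excess of more than 0.5 was seen at 636 islands under LmnA RNAi (91.4%), 655 under LmnC RNAi (94.1%) and 640 under LmnB1 RNAi (92.0%). Among all 100 kb windows of the autosomes, set against their own flanking 200 kb, the share was 29.3%, 30.2% and 27.7%. It held in all 3 maps at 614 islands (88.2%), and for 17.3% of windows. The LAD calls already separate inside from outside, so these shares carry no weight of their own. On at least 1 side the 200 kb flank was above the island at 99 islands under LmnA RNAi, 88 under LmnC RNAi and 99 under LmnB1 RNAi. The like count over windows is not given. Island means were above 0 in all 3 maps at 601 islands (86.4%), against 50.1% of windows.

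**Figure D2:**
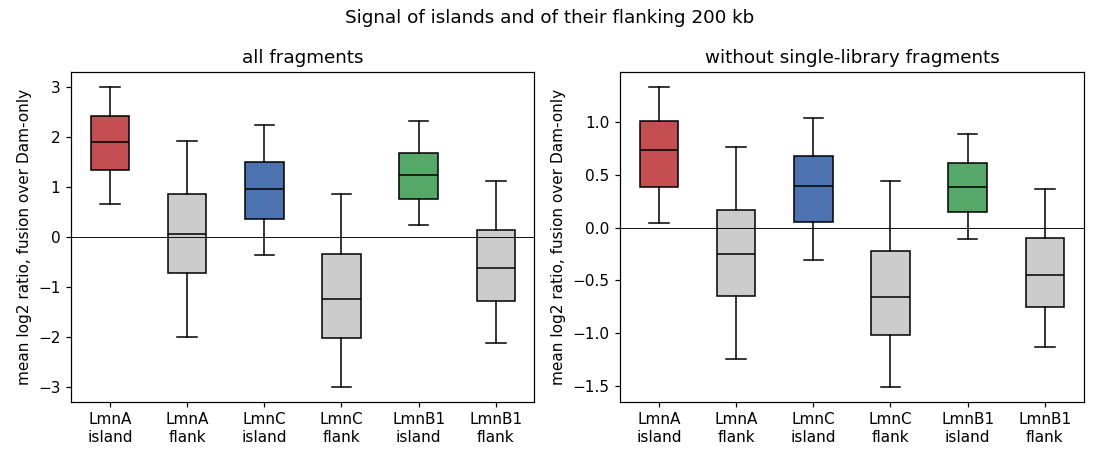
Mean log2 ratio (y) of 696 islands (coloured boxes) and of their flanking 200 kb (grey boxes) in the 3 maps, over all fragments at left and without single-library fragments at right. Boxes give the quartiles and the median, and whiskers the 5th and 95th percentile of islands. Island medians lie above flank medians in each map, at 1.90 against 0.07, 0.96 against -1.23 and 1.24 against -0.62 at left.

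Single-library fragments were also set out as counts. They are part of the signal on which the LAD lists rest, so these shares are no separate support. Of these fragments inside islands, the share read in the fusion library was 83.0% under LmnA RNAi (Wilson 95% interval 82.7 to 83.2, of 85929 fragments), against 59.9% in flanks. After LmnC RNAi the share was 71.5% in islands (71.2 to 71.8, of 77084), against 39.0% in flanks. After LmnB1 RNAi it was 75.1% in islands (74.8 to 75.4, of 78714), against 45.9% in flanks. These intervals treat each fragment as independent and cover counting error only, since reads were amplified by PCR and the libraries have no replicate. In core stretches of 300 kb to 1 Mb the share was 85.2%, 75.8% and 78.4% in the LmnA, LmnC and LmnB1 RNAi maps. For those of 1 Mb or more it was 84.1%, 78.5% and 81.1%.

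Signal stepped up at the border, which is itself a LAD border called from this same signal. In 10 kb bins averaged over 1392 borders, the signal in the first bin inside was 1.802 under LmnA RNAi, 0.92 under LmnC RNAi and 1.22 under LmnB1 RNAi. The first bin outside had 0.06, -1.22 and -0.60. Signal was lowest 20 to 30 kb outside, at -0.53, -1.82 and -1.16. It then climbed with distance to 0.41, -0.67 and -0.18 at 190 to 200 kb, where 62.1%, 47.1% and 49.2% of the sequence was in LADs. The share in LADs was 53.2%, 27.2% and 32.7% in the lowest bin and 69.2%, 44.0% and 51.6% in the first bin outside. From 10 to 50 kb inside the border the signal stayed nearly level, between 1.76 and 1.93 under LmnA RNAi. Once single-library fragments were left out, the first bin inside had 0.57, 0.22 and 0.27 and the lowest bin -0.56, -0.96 and -0.69.

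Longer core stretches had a like profile at a higher level. Median signal of the islands was 1.90, 0.96 and 1.24 in the LmnA, LmnC and LmnB1 RNAi maps. Over 785 stretches of 300 kb to 1 Mb it was 2.33, 1.45 and 1.60, and over 352 of 1 Mb or more it was 2.46, 1.83 and 1.99. Without single-library fragments the islands had 0.74, 0.39 and 0.38, against 0.99, 0.66 and 0.59 and then 1.07, 0.86 and 0.78. A mean above 0 under LmnC RNAi was found at 86.5% of islands, 92.4% of stretches of 300 kb to 1 Mb and 98.6% of those of 1 Mb or more. From the short to the long class, the median excess over the flanks was 1.79, 1.95 and 1.95 under LmnA RNAi, 2.06, 2.28 and 2.53 under LmnC RNAi and 1.77, 1.97 and 2.16 under LmnB1 RNAi. These classes share libraries and the LAD calls, so the order was not tested.

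**Figure D3:**
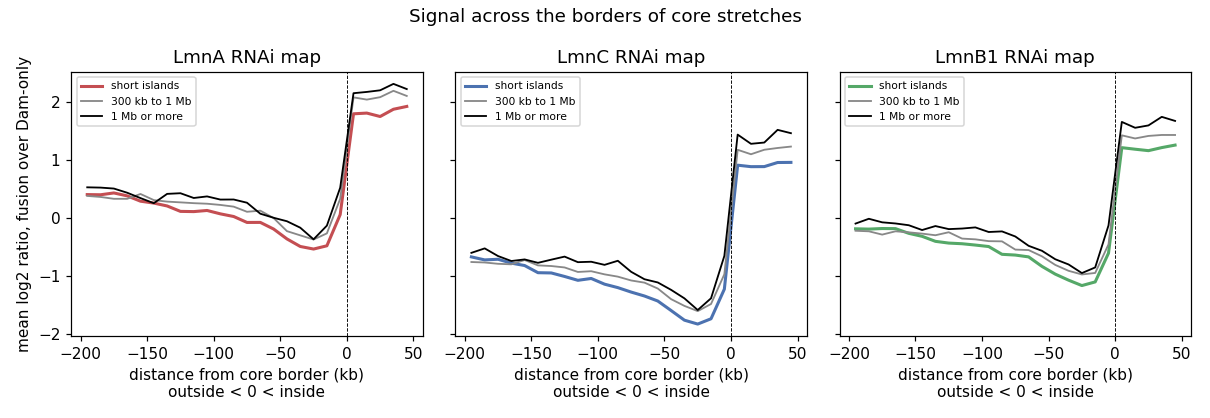
Mean log2 ratio (y) in 10 kb bins by distance from the core border (x, kb, negative outside) for short islands (coloured), stretches of 300 kb to 1 Mb (grey) and of 1 Mb or more (black), with one panel for each map. Both sides of a stretch are averaged, and island curves rest on 1392 borders outside and at least 1338 inside. Each curve steps up at the border, dips 20 to 30 kb outside it, and is lowest inside for the short islands.

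Signal and excess were then set out by how many maps had a long LAD around the island. The 185 islands held by short LADs in all maps had a median signal of 1.61, 0.80 and 1.01 in the LmnA, LmnC and LmnB1 RNAi maps, and an excess over flanks of 2.62, 2.93 and 2.40. The 48 covered islands held by long LADs in all maps had signals of 2.24, 1.18 and 1.39 and an excess of 1.09, 1.25 and 1.09. Without single-library fragments the excess was 1.29, 1.35 and 1.08 in the first set and 0.53, 0.53 and 0.44 in the second. In the 6 classes between, with a long LAD in 1 or 2 maps, the median signal ran from 1.63 to 2.19 under LmnA RNAi, 0.65 to 1.46 under LmnC RNAi and 1.07 to 1.71 under LmnB1 RNAi. The class long under LmnB1 RNAi alone, with 30 islands, had 1.63, 0.65 and 1.07. The excess in those classes ran from 1.46 to 2.09, 1.61 to 2.28 and 1.29 to 2.03. The part of LAD sequence in the flanks in these differences was not tested.

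The 5 islands with the greatest excess, averaged over the 3 maps, had little LAD sequence in their flanks (8.1% or less in each map). The first was chr8:73473930-73766434, with 2.45 ± 0.16 under LmnA RNAi, 1.52 ± 0.17 under LmnC RNAi and 1.71 ± 0.15 under LmnB1 RNAi (SE over 767 fragments). Its flanks had -3.03, -3.38 and -2.54, and the next LAD of any map was 486 kb away. Its LADs were 296.7, 294.0 and 311.5 kb long. Without single-library fragments it had 1.22, 0.85 and 0.66, against -1.74, -1.64 and -1.37 in its flanks.

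A second island of this kind, at chr7:26242691-26390895, had 2.41 ± 0.31, 1.45 ± 0.21 and 1.25 ± 0.27, against -2.94, -3.80 and -2.46 in its flanks. At chr5:138234590-138518851 the values were 3.08 ± 0.22, 2.05 ± 0.21 and 1.98 ± 0.18, against -1.86, -2.52 and -2.38. The borders of that island were nearly the same in all maps, with LADs of 285, 290 and 291 kb. At chr15:77258766-77515278 the island had 1.60 ± 0.19, 0.64 ± 0.17 and 0.52 ± 0.18, against -3.03, -4.31 and -3.44. Its level was modest, and the depth of its flanks made the excess large. The last lay at the start of the sequenced part of chromosome 12, from 3000004 to 3219612, with 1.79 ± 0.20, 1.39 ± 0.17 and 1.40 ± 0.20, against -2.82, -3.67 and -2.45 on its 1 flank.

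At the other end, 40 islands lay below their flanks in at least 1 map and 9 in all 3. No such count over windows or longer core stretches is given here, so these numbers have no background. The lowest mean excess was at chr9:98888264-99005422, with 0.83 ± 0.25, 0.61 ± 0.23 and 0.43 ± 0.26 in the LmnA, LmnC and LmnB1 RNAi maps, against 1.70, 1.06 and 0.89 in its flanks. An island at chr17:66715727-66825915 had 0.91 ± 0.24, -0.47 ± 0.36 and -0.54 ± 0.35, against 1.36, -0.19 and 0.48. LADs covered 83.1%, 74.6% and 100% of its flanks, in that order. At chr11:10913552-11011179 the values were 1.88 ± 0.29, 1.18 ± 0.21 and 1.54 ± 0.26, against 2.61, 1.66 and 2.03. That stretch lies inside LADs of 786, 2141 and 2905 kb.

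The other two of the 5 lowest islands lay in LADs of over 1 Mb in 2 maps. At chr9:55075866-55370592 the island had 0.75 ± 0.14, -0.23 ± 0.16 and 0.46 ± 0.14, against 1.57, 0.28 and 0.51. At chr3:133718060-133884753 it had 1.77 ± 0.26, 0.94 ± 0.19 and 1.07 ± 0.20, against 2.34, 1.09 and 1.73. All 5 stayed below their flanks in each map without single-library fragments. As deposited, 3 of their differences were smaller than the SE of the island's signal, at -0.28 for the chromosome 17 island and -0.14 for the chromosome 3 island under LmnC RNAi, and -0.06 for the island from 55075866 under LmnB1 RNAi.

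A single island had a mean below 0 in all 3 maps, and it was looked up after the values were seen. It is at chr4:43761149-43893507 and had -0.15 ± 0.32 under LmnA RNAi, -0.96 ± 0.30 under LmnC RNAi and -0.31 ± 0.26 under LmnB1 RNAi. Its flanks were lower still, at -2.76, -3.71 and -2.66. Odd and even fragments gave opposite signs under LmnA RNAi (0.15 and -0.47) and under LmnB1 RNAi (-0.73 and 0.14), so the sign is unsettled in those maps. Its LADs were 154, 134 and 180 kb long. The excess was 2.62, 2.76 and 2.35, and 1.22, 1.02 and 0.85 without single-library fragments.

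The ranking of islands was alike in the 3 maps. Across 696 islands the excess over flanks correlated with r = 0.903 between the LmnA and LmnC RNAi maps, 0.865 between LmnA and LmnB1 RNAi and 0.913 between LmnC and LmnB1 RNAi (Spearman 0.893, 0.849 and 0.903). Island signal itself correlated with r = 0.800, 0.762 and 0.818. The points share GATC fragments, base composition and in part flanks, so these are descriptions. Odd against even fragments of 1 map gave r = 0.812, 0.875 and 0.793 for the signal, in the LmnA, LmnC and LmnB1 RNAi maps. Each of these odd or even means rests on only part of an island's fragments, while the correlations between maps use all of them. The within-map and between-map values are therefore not on the same footing, and how far the maps differ beyond sampling error cannot be read from them.

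The LmnA and LmnC RNAi maps, made with the same fusion, were compared at the islands. As deposited, the signal was higher under LmnA RNAi by a median of 0.90 over 696 islands, against 0.93 over 23944 windows of 100 kb. It was higher by more than 0.5 at 82.8% of islands, against 75.8% of windows, and lower by more than 0.5 at 0.431%, against 0.802%. Each map was then centred on its median window, so that an offset common to a whole map dropped out. The median windows were at 1.21 under LmnA RNAi and 0.06 under LmnC RNAi. These lie further apart than the 0.93 of the windows, so the median difference over windows also fell below 0. At the islands the median difference turned to -0.25. By more than 0.5, 53 islands were then higher (7.61%, windows 15.6%) and 196 lower (28.2%, windows 32.5%). Without single-library fragments the median was 0.33, with 25.3% of islands higher by more than 0.5 (windows 22.4%) and 0.287% lower (windows 0.0752%). The direction thus depends on the scale, at the islands as over all windows. The island shares lie near those of all windows or below them after centring. An island difference had a sampling SD of 0.28, estimated from odd and even fragments.

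Against the LmnB1 RNAi map, which also differs in fusion, the LmnA RNAi signal was higher by a median of 0.63 as deposited (windows 0.47). It was higher by more than 0.5 at 60.5% of islands (windows 48.7%) and lower at 1.15% (windows 8.24%). Centring brought the median to -0.046, with 11.9% higher (windows 13.7%) and 15.9% lower (windows 33.4%). The median windows of these maps, at 1.21 and 0.53, lie further apart than 0.47, so the median difference over windows also fell below 0. Over the remaining fragments, without single-library ones, the median was 0.32, with 22.7% higher (windows 16.7%) and 0% lower (windows 2.56%). Set against LmnB1 RNAi, the LmnC RNAi signal had a median difference of -0.28 as deposited (windows -0.51). By more than 0.5 it was higher at 2.73% of islands (windows 4.69%) and lower at 31.0% (windows 50.5%). After centring the median was 0.19, with 24.1% higher (windows 19.6%) and 7.04% lower (windows 24.3%), and without single-library fragments it was -0.011, with 0.287% higher (windows 0.601%) and 1.01% lower (windows 10.4%). Windows include sequence outside LADs and are shorter than most islands, so the shares do not compare like with like. Longer core stretches were therefore set beside the islands, after centring. For LmnA minus LmnC RNAi, 7.61% of islands were higher and 28.2% lower, against 3.95% and 27.1% of stretches of 300 kb to 1 Mb and 0.284% and 48.3% of those of 1 Mb or more. For LmnA minus LmnB1 RNAi the islands had 11.9% and 15.9%, against 7.90% and 5.61% and then 0.852% and 18.75%. For LmnC minus LmnB1 RNAi they had 24.1% and 7.04%, against 28.3% and 3.69% and then 20.5% and 1.70%.

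**Figure D4:**
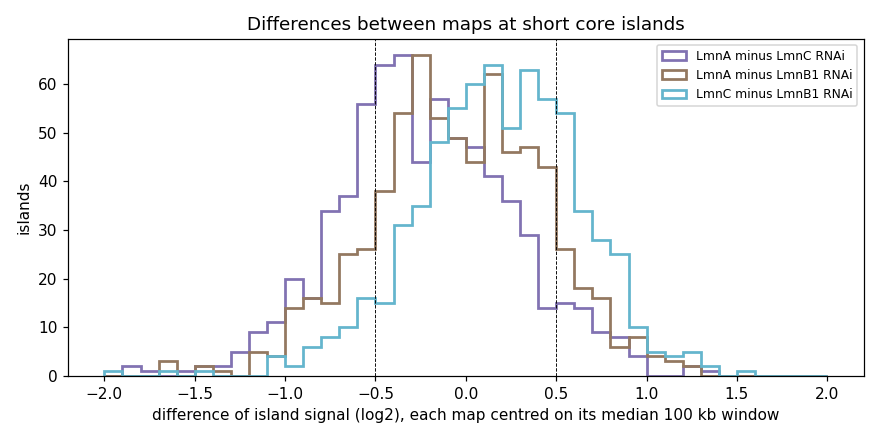
Difference in island signal between maps (x, log2, each map centred on its median 100 kb window) against the number of islands (y), for 696 islands and 3 pairs of maps, with dashed lines at -0.5 and 0.5. The medians are -0.25 for LmnA minus LmnC RNAi, -0.046 for LmnA minus LmnB1 RNAi and 0.19 for LmnC minus LmnB1 RNAi.

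The islands at the extremes of each centred difference are given as a description, since they were picked from 696 by these values. After centring, the LmnA RNAi excess over LmnC RNAi was greatest at chr13:9519012-9672627. The island had 2.20 ± 0.24 under LmnA RNAi, -0.30 ± 0.19 under LmnC RNAi and 0.33 ± 0.21 under LmnB1 RNAi, and 0.94, -0.22 and -0.07 without single-library fragments. It lies in a LAD of 3257 kb under LmnA RNAi, and in LADs of 156 and 170 kb under LmnC and LmnB1 RNAi. The same island was among the 3 highest for LmnA minus LmnB1 RNAi. At chr12:9592067-9838799 the values were 1.35 ± 0.21, -1.06 ± 0.20 and 0.25 ± 0.20 in the LmnA, LmnC and LmnB1 RNAi maps. The LAD of the LmnC RNAi map there was the island itself, at a negative mean. At chr18:58736206-58803529 the values were 2.53 ± 0.55, 0.15 ± 0.36 and 1.43 ± 0.40. Without single-library fragments that difference of LmnA minus LmnC RNAi shrank to 0.27.

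In the opposite direction, an island at chr7:113205209-113325346 had 1.66 ± 0.31 under LmnA RNAi and 2.39 ± 0.31 under LmnC RNAi, with 2.17 ± 0.34 under LmnB1 RNAi. It is 1 of 3 islands at which the deposited signal was lower under LmnA RNAi by more than 0.5. The others were at chr6:117904091-118056565, with 0.16 ± 0.28, 0.88 ± 0.34 and 0.89 ± 0.23, and at chr11:82931878-83073689, with 1.22 ± 0.25, 1.79 ± 0.26 and 1.74 ± 0.25. Without single-library fragments LmnA minus LmnC RNAi was -0.61, 0.05 and -0.66 at the chromosome 7, 6 and 11 islands, so the chromosome 6 difference did not hold. The chromosome 11 island lies in a LAD of 348 kb under LmnA RNAi and is identical to the LAD of the LmnB1 RNAi map (142 kb).

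For LmnA minus LmnB1 RNAi, the islands highest after centring were at chr9:30454109-30585448 (2.63 ± 0.26 under LmnA RNAi and 0.72 ± 0.20 under LmnB1 RNAi) and at chr12:13309243-13433389 (2.68 ± 0.31 and 0.78 ± 0.21). Both lie in long LADs of the LmnA RNAi map, of 1902 and 4098 kb. The lowest was at chr9:7350674-7487345, with 0.30 ± 0.29 under LmnA RNAi and 1.30 ± 0.28 under LmnB1 RNAi. The next were neighbours on chromosome 17, from 62167794 to 62277689 (0.54 ± 0.56 and 1.54 ± 0.50) and from 62327689 to 62466212 (0.20 ± 0.44 and 1.13 ± 0.30).

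The same chromosome 17 pair, with an island from 61828633 to 62117794, were the 3 lowest for LmnC minus LmnB1 RNAi. LmnC RNAi had -0.88 ± 0.51, -1.04 ± 0.40 and -0.17 ± 0.24 there, and LmnB1 RNAi 1.54 ± 0.50, 1.13 ± 0.30 and 1.70 ± 0.23, in the order in which the islands were named. The differences were -2.42, -2.17 and -1.88 as deposited, and -0.52, -0.53 and -0.35 without single-library fragments. The 3 islands are parts of 1 LAD of 5049 kb under LmnC RNAi, and each has a border within 10 kb of an assembly gap. In all 37 islands have such a border. Of these, 27 are identical to the LAD of the LmnB1 RNAi map, 1 to that of the LmnC RNAi map and 0 to that of the LmnA RNAi map. LmnC minus LmnB1 RNAi was highest at chr12:23734469-23989135 (2.71 ± 0.26 under LmnC RNAi and 1.59 ± 0.24 under LmnB1 RNAi), which also borders a gap. It was next highest at chr8:90894216-91025813 (1.60 ± 0.22 and 0.70 ± 0.21) and at chr1:129407429-129655170 (2.38 ± 0.18 and 1.54 ± 0.16). At these highest islands it was 0.56, 0.33 and 0.36 without single-library fragments.

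The islands were spread unevenly over the autosomes. Chromosome 10 had the most for its core, with 62 islands or 0.977 per Mb of core, and islands made up 18.3% of its core sequence. Chromosome 11, which is gene-dense, followed with 48 islands (0.959 per Mb), and chromosome 13 with 44 (0.760). Chromosome 14 had the fewest for its core, with 27 islands (0.372 per Mb) and 6.74% of its core in islands, and chromosome 1 was next with 43 (0.390). Core made up 50.4% of fragment length on chromosome 10, 42.5% on chromosome 11 and 60.0% on chromosome 14. Along the chromosome, which in the mouse starts at the centromere, successive bins of 20% of its length held 142, 134, 120, 144 and 158 islands. These were 20.3%, 19.2%, 17.2%, 20.6% and 22.6% of the islands, against 19.8%, 20.6%, 19.01%, 19.97% and 20.7% of the longer core stretches.

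**Figure D5:**
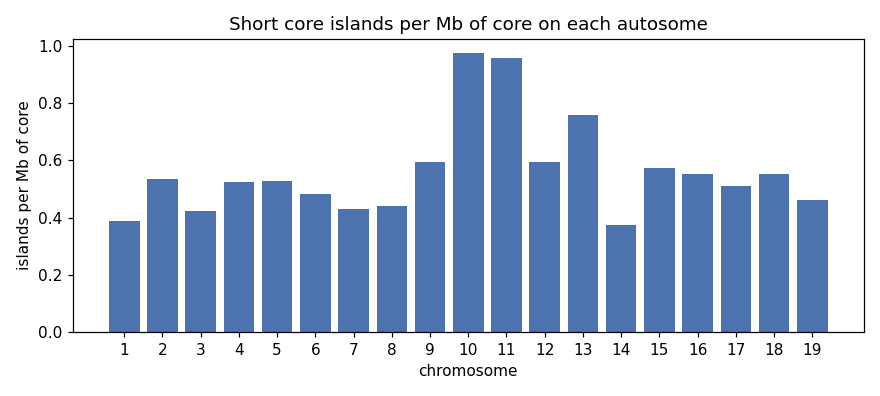
Number of short core islands per Mb of core (y, bars from 0) on each autosome (x). Chromosomes 10 and 11 stand highest, at 0.977 and 0.959, and chromosome 14 lowest, at 0.372.

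GATC spacing, which the choice of members did not use, was much alike in islands and in longer core. The mean fragment was 386 bp in islands, 386 bp in core stretches of 300 kb to 1 Mb and 386 bp in those of 1 Mb or more. It was 408 bp in the island flanks and 414 bp in sequence outside the LADs of all maps. GATC sites were thus closer together in the islands than around them, and spacing was wider in the island than in its flanks at 195 of 696. Islands were below longer core on 10 of 19 chromosomes. Spacing also affects how many fragments a mean rests on, and its part in the signal was not tested.

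Isolation was ranked by the distance from the joined LADs of all maps around an island to the next LAD on the nearer side, so it describes those joined LADs and not the island. The first, at chr4:60810643-61005208, lies in joined LADs of 2019 kb with 2696 kb to the next, and other core stretches lie 50 kb from it on both sides. It had 3.42 ± 0.22, 2.89 ± 0.22 and 2.48 ± 0.21 in the LmnA, LmnC and LmnB1 RNAi maps. It sits inside LADs of 1900 and 2018 kb under LmnA and LmnC RNAi and borders an assembly gap. The second, at chr5:113669834-113914250 (joined LADs of 1220 kb, 2088 kb to the next), had 0.56 ± 0.23, 0.04 ± 0.19 and 0.11 ± 0.18, against -0.67, -2.02 and -1.31 in its flanks. The third was the chromosome 18 island named above (joined LADs of 1928 kb, 1781 kb to the next).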

How the data were processed

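Per the submitters' processing notes, reads were aligned with Bowtie to mm9. The sources used here do not name the read filters, the ratio step or the LAD caller. The deposited signal files hold log2 ratios, 1 for each of 5972542 autosomal GATC fragments, identical in the 3 maps. Each value steps as log2 of fusion over Dam-only reads after 1e-05 was added to each count, and then shifted by a map constant (-0.34, 0.21 and -0.15 for LmnA, LmnC and LmnB1 RNAi), and recovered reads were whole within 0.02 in 100% of single-library values up to 100 reads. The other files are the authors' LAD starts and ends. Fragments were assigned by their middle. Islands, 200 kb flanks and 100 kb windows were length-weighted means, and windows needed 50% cover. Assembly gaps are stretches of 10 kb or more with no fragment. Computations used Python 3.11.15, numpy 2.4.6 and pandas 2.3.3, and were tested on simulated data. The members, lists and named-region rules were chosen with earlier results of these data known. Named regions are the 3 longest and 3 shortest islands, those next to the length limits, the 5 highest and 5 lowest by mean excess, the 3 highest and 3 lowest in each centred pair difference, and the 3 most isolated. Alternatives changed the length limits, joining, gaps, fragment choice and weights, centring and flank width. A genome or gene annotation of mm9 was not used here.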

Additional observations from a re-analysis of the deposited data

Results flagged for a closer look

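Of the islands named in the report, 3 had an excess over their flanks with opposite signs in different maps. With 1 map per knockdown the difference was not tested. On chromosome 5 from 10694136 to 10751731 the excess was -0.13 under LmnA RNAi, 0.19 under LmnC RNAi and 0.17 under LmnB1 RNAi, all within the errors of its 127 fragments, and -0.28, -0.34 and -0.16 without single-library fragments. On chromosome 12 from 23734469 to 23989135 it was -0.52, 0.51 and -0.22, and -0.03, -0.02 and -0.15 without them. The island on chromosome 4 from 60810643 to 61005208 had -0.10, 0.31 and 0.05, and -0.03, 0.11 and 0.02 without them. Over all 696 covered islands, 31 had opposite signs in at least 1 pair of maps, with no such count given for windows.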

How the results depend on the processing

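No paired analysis was possible because each map rests on 1 Dam-only and 1 fusion library. Of 139 comparisons with an alternative, 55 moved little. For these the limit was the difference between odd and even fragments, or 0.005 where that is larger. Counts had a limit of 1.5 times. Flank shares and GATC spacing had no difference between odd and even fragments, so for them any shift over 0.005 counted as moved. In 81 the value moved further, and in 3 the sign turned. Values are given for the LmnA, LmnC and LmnB1 RNAi maps in that order, and differences as LmnA minus LmnC, LmnA minus LmnB1 and LmnC minus LmnB1 RNAi. Centring each map turned the differences to -0.25, -0.046 and 0.19 and gave island signals of 0.69, 0.90 and 0.71. Without single-library fragments the signals were 0.74, 0.39 and 0.38, the excess over flanks 0.93, 0.97 and 0.80 and the differences 0.33, 0.32 and -0.011. With equal weights for fragments these were 3.30, 2.18 and 2.24, then 2.64, 3.29 and 2.91, then 1.14, 0.97 and -0.14. Without fragments at the map constant they were 2.13, 1.05 and 1.43, then 1.96, 2.26 and 1.97, then 1.03, 0.67 and -0.37. Flanks of 100 kb gave an excess of 1.98, 2.28 and 1.99 with 52.2%, 28.1% and 36.3% of the flanks in LADs, and flanks of 50 kb 2.13, 2.51 and 2.16 with 52.4%, 23.9% and 39.0%. Flanks outside the LADs of all maps, which 553 islands have, gave 3.59, 3.86 and 3.31.

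Joining core stretches under 50 kb apart gave 552 islands, against 698, of which 179 were held by LADs under 300 kb in all maps, against 185. Their signals were 1.82, 0.89 and 1.16, with an excess of 1.96, 2.25 and 1.93. The flank shares were 52.3%, 29.8% and 32.8%, the LmnA minus LmnC RNAi difference 0.88 and the GATC spacing 386 bp. With a lower length limit of 100 kb, the signal under LmnB1 RNAi was 1.23, the excess under LmnA RNAi 1.82, LmnC minus LmnB1 RNAi -0.27, the flank shares 56.0%, 36.9% and 41.4% and the spacing 386 bp. With an upper limit of 200 kb there were 414 islands, of which 370, 390 and 379 exceeded their flanks by more than 0.5. Their signals were 1.88 under LmnA RNAi and 1.26 under LmnB1 RNAi, the excess under LmnA RNAi was 1.72, the differences 0.85, 0.59 and -0.27, the flank shares 56.7%, 39.98% and 43.2% and the spacing 383 bp. Removing assembly gaps from the LAD lists gave 701 islands, of which 212 were held by LADs under 300 kb in all maps. The flank shares were then 56.0%, 37.4% and 42.4%. The median fragment was 250 bp in islands. The counts fell with the stricter limit because fewer islands remained, and the cause of the other shifts was not tested. Depth limits single islands: a difference between maps had a sampling SD of 0.28, 0.29 and 0.27 for the 3 pairs, and the SE of a named island's signal reached 0.56. With no replicate map the spread between cultures is unknown.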
